A study of Mus musculus with 4 samples.

Results

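Cycling stromal and endothelial cells are the dividing cells of the sorted, non-blood fraction of the bone marrow. They were chosen as cells with 3 or more UMIs of Top2a plus Mki67 and no UMI of Ptprc, where a UMI is 1 captured RNA molecule after removal of amplification copies. Of 18106 cells that passed the filters on genes, UMIs and mitochondrial RNA, 314 were members. They were divided by 1 or more Cdh5 UMI into endothelium (103 cells), then by 20 or more Col2a1 UMIs per 10000 into cartilage (127 cells), and the rest was called other stroma (84 cells). All mice were Rag2-/-gammac-/- on C57BL/6, a strain that lacks B, T and NK cells, and age was not given in the sources used here. Graft_D19 and Graft_D40 are femurs that were injected with DOHH2 cells, a long-used B-cell line from a human follicular lymphoma, and taken at days 19 and 40. Sham_D40 is a PBS-injected femur at day 40 and Ctrl is an ungrafted femur. The sort took Cd45 and Ter119 negative cells that were Cd31 negative, Cd51 and Cd200 positive (stroma) or Cd31 and Sca1 positive (endothelium), so the makeup of each library also reflects these gates.

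Each group had 1 library. No difference was therefore tested, animal, day and library cannot be told apart from the group, and every interval below covers counting error at 95% and nothing else. Ctrl was the shallowest library, at 3607 UMIs in its median cell, and the other libraries lay at 8654 to 9637. Between any pair of libraries 11 to 15 barcodes were shared, and no barcode was a cycling cell in both libraries of a pair. The doublet caller Scrublet marked 0.946% to 1.87% of the cells of a library, and 1 of the 314 cycling cells, in Graft_D19.

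A cell that divides first copies its DNA in S phase, with the Mcm helicase, Pcna and ribonucleotide reductase (Rrm1, Rrm2). It then builds up cyclin B, the kinase Cdk1 and the proteins of the spindle and kinetochore in G2 and mitosis. Top2a untangles the copied chromosomes and Mki67 coats them, and both are made mainly late in the cycle. In adult marrow most stromal and endothelial cells are at rest, whereas chondrocytes of the growth plate divide in columns before they enlarge. Marrow sinusoids divide when vessels regrow, and fibroblast-type stroma divides in repair and scarring.

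Values near the membership threshold show how the cells around it looked. In endothelium the 26 cells with 2 UMIs of Top2a plus Mki67, just outside, had a median of 15 UMIs over the 51 genes of the G2/M list, and the 4 cells with 3 UMIs, just inside, had a median of 51. In cartilage these medians were 17 and 25 UMIs in 21 and 14 cells, and in other stroma 12 and 73 UMIs in 26 and 5 cells. Cells with 4 UMIs had medians of 26.5, 61 and 19.5 in endothelium (10 cells), cartilage (3) and other stroma (8). Ranges overlapped across the threshold, at 2 to 80 and 10 to 71 UMIs in endothelium. In other stroma they were 2 to 208 and 3 to 513 UMIs. Medians of so few cells do not show a step at the threshold. Most members lay far above the threshold, with a median of 28, 27, 38 and 9 UMIs of Top2a plus Mki67 in Graft_D19, Graft_D40, Sham_D40 and Ctrl. The G2/M list leaves out both of those genes, and each member carried 3 or more of its UMIs. That count alone does not set members apart, since remaining cells had medians of 4, 5, 4 and 2 of these UMIs in the same order. In remaining cartilage the medians were 12, 13, 11 and 1. Members had medians of 245, 214, 284.5 and 166. Cycling cells were deeper than the remaining cells of their compartment, for example with medians of 48734 and 8593 UMIs in Graft_D40 other stroma, so a fixed UMI threshold is easier to reach in deep cells.

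The compartment names held in part. Endothelial members with under 3 Cdh5 UMIs numbered 13 of 49, 10 of 40, 1 of 12 and 1 of 2 in Graft_D19, Graft_D40, Sham_D40 and Ctrl. Cartilage levels of Col2a1, 20 or more UMIs per 10000, were found in 9 of 49, 5 of 40, 1 of 12 and 0 of 2 cycling endothelial cells. In remaining endothelium 4.71%, 8.15%, 3.19% and 1.01% of cells reached that Col2a1 level. Cells with 2 or more UMIs over 11 blood-cell genes made up 5 of 17, 4 of 49, 1 of 10 and 4 of 8 cycling cells of other stroma in the same order. In cycling other stroma the summed erythroid list stood at 8797, 38.1, 13936 and 23205 CPM, where CPM is the UMIs of a gene or list per 1000000 UMIs of the pooled cells. In remaining other stroma it stood at 114, 35.7, 213 and 868 CPM. A narrowed set of 260 members was therefore followed alongside: all cells with under 2 blood-gene UMIs, and endothelium with 3 or more Cdh5 UMIs and under 20 Col2a1 UMIs per 10000. It was chosen after the data were seen.

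Cycling endothelium was more common in both grafted libraries than in either ungrafted one. It made up 3.06% (49 of 1599 cells, 2.28% to 4.03%) in Graft_D19, 2.58% (40 of 1550, 1.85% to 3.50%) in Graft_D40, 0.791% (12 of 1517, 0.409% to 1.38%) in Sham_D40 and 0.127% (2 of 1580, 0.0153% to 0.457%) in Ctrl. The intervals of the grafted libraries lay above those of the ungrafted libraries. The share in Graft_D40 was 3.26 times that in Sham_D40 (1.68 to 6.83), and that in Graft_D19 was 24.2 times that in Ctrl (6.35 to 206). The ungrafted libraries also differed, with Sham_D40 at 6.25 times Ctrl (1.39 to 57.5). Among narrowed cells the shares were 2.26%, 2.57%, 0.529% and 0.0992%, the last being 1 of 1008 cells.

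Cycling cartilage followed another order. The share was 9.38% (65 of 693 cells, 7.31% to 11.8%) in Graft_D19, 4.14% (36 of 870, 2.91% to 5.68%) in Graft_D40, 3.85% (14 of 364, 2.12% to 6.37%) in Sham_D40 and 5.29% (12 of 227, 2.76% to 9.05%) in Ctrl. Graft_D40 and Sham_D40 did not separate (ratio 1.08, 0.566 to 2.16), nor did Graft_D19 and Ctrl (1.77, 0.95 to 3.61) or Sham_D40 and Ctrl (0.728, 0.312 to 1.72). Cartilage held the highest share of cycling cells in every library. Among remaining cells cartilage was also the deepest compartment in Graft_D19, Graft_D40 and Sham_D40 (medians of 24555, 24812 and 21588 UMIs), whereas in Ctrl its median was 1457 UMIs.

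Cycling other stroma was most frequent in Graft_D40. The share was 0.694% (17 of 2450 cells, 0.405% to 1.11%) in Graft_D19, 2.22% (49 of 2209, 1.65% to 2.92%) in Graft_D40, 0.380% (10 of 2633, 0.182% to 0.697%) in Sham_D40 and 0.349% (8 of 2290, 0.151% to 0.687%) in Ctrl. The Graft_D40 interval lay above the other 3. Graft_D40 was 5.84 times Sham_D40 (2.92 to 12.9), whereas Graft_D19 was 1.99 times Ctrl with an interval that included 1 (0.812 to 5.32). The narrowed shares were 0.495%, 2.05%, 0.347% and 0.177%, and without the blood-type cells the Graft_D40 share was still the highest.

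Thinning each cell to 1000 UMIs and counting cells with 1 or more Top2a or Mki67 UMI gave 2.81%, 2.52%, 0.791% and 0.190% in endothelium of Graft_D19, Graft_D40, Sham_D40 and Ctrl. The same count gave 7.79%, 4.37%, 3.57% and 5.73% in cartilage, and 0.776%, 1.67%, 0.380% and 0.393% in other stroma. At 1000 UMIs the order of the libraries was that of the rule in cartilage and endothelium, and in other stroma Graft_D40 and Graft_D19 were first and second. At 2000 UMIs, which leaves out shallower cells, endothelium gave 3.39%, 2.79%, 1.49% and 0.354% in the same order of libraries. In cartilage it gave 8.38%, 3.88%, 4.64% and 8.24%, with Sham_D40 above Graft_D40, and in other stroma 0.602%, 2.40%, 0.901% and 0.437%, with Graft_D19 below Sham_D40. A count that used neither gene, 2 or more UMIs over 20 mitotic genes after thinning to 2000 UMIs, gave 2.58 times as many cells in Graft_D40 as in Sham_D40 endothelium (1.36 to 5.17). For Graft_D19 over Ctrl endothelium it gave 4.91 times (2.07 to 14.2), and for Graft_D40 over Sham_D40 other stroma 6.16 times (2.85 to 15.2). Counting by the full G2/M list, which has a background in remaining cells, gave smaller ratios: 3 or more of its UMIs after thinning to 2000 gave 1.28 for Graft_D40 over Sham_D40 endothelium, 1.10 for Graft_D19 over Ctrl endothelium and 1.73 for Graft_D40 over Sham_D40 other stroma. By that count Sham_D40 over Ctrl endothelium was 0.936, on the other side of 1.

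**Figure D1:**
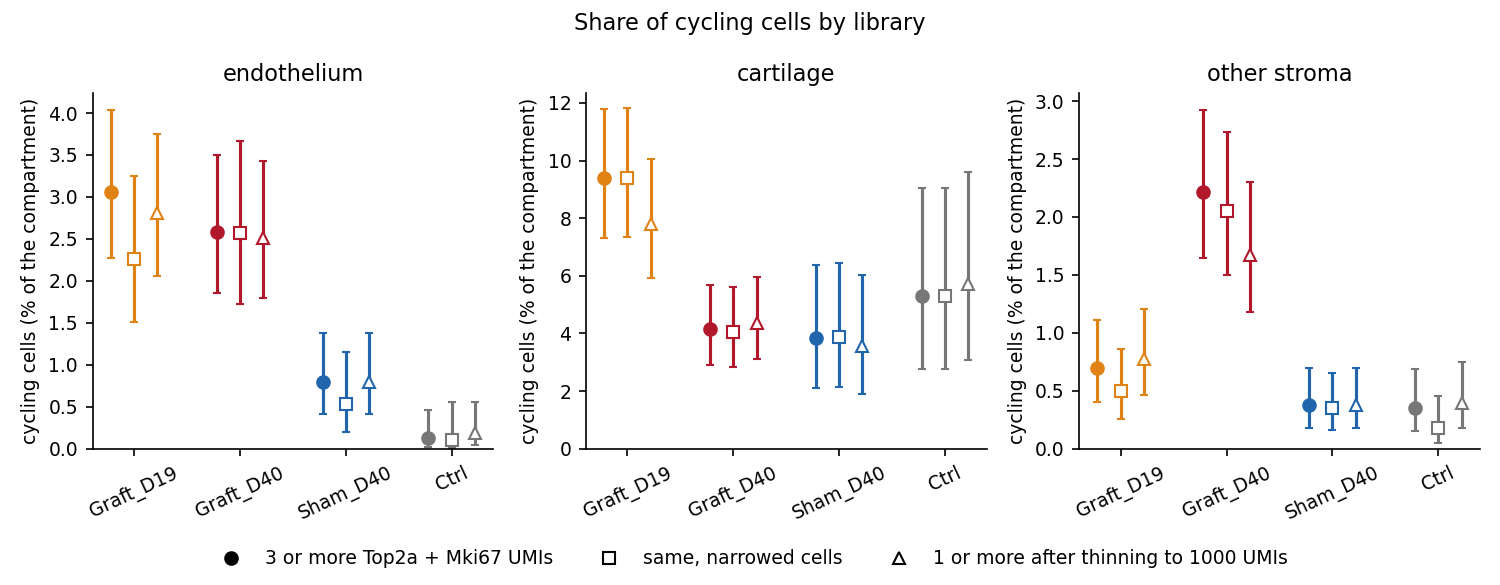
Share of cycling cells (percent of the compartment, vertical axis) in each library, for endothelium, cartilage and other stroma. Filled circles follow the membership rule, open squares the narrowed cells and open triangles cells thinned to 1000 UMIs; bars are 95% Clopper-Pearson intervals for counting error, and the Graft_D40 share in other stroma (2.22%) stands above the 0.694%, 0.380% and 0.349% of Graft_D19, Sham_D40 and Ctrl.

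The RNA of the cycling cells held most genes of the division lists beside the pair that chose the cells. Since these cells were selected on their RNA, the folds against remaining cells are a description. At 2-fold or more in every library, 40 of 47 measured G2/M genes were higher in cycling endothelium, 46 of 47 in cartilage and 44 of 45 in other stroma. Over all genes the shares were 3.63%, 6.91% and 5.83% in the 3 compartments. In narrowed cells 34 of 48 G2/M genes were higher in endothelium, where 2.34% of all genes were, and 41 of 44 in other stroma, where 3.16% were. Of the S phase list 27 of 35, 28 of 31 and 29 of 31 measured genes were higher (4 of 31 in narrowed endothelium, where Ctrl held 1 cell, and 33 of 34 there without Ctrl), and of the list of replication histones and chromatin proteins 20, 19 and 19 of 24. A common core of 159 of the 4920 genes tested in all 3 compartments was higher in every library of each (3.23%), which is 62.4% of the endothelial, 40.6% of the cartilage and 40.4% of the other stroma genes so called. It held 37 G2/M genes, 20 S phase genes and 83 genes outside the cell cycle and chromatin lists.

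Birc5 (survivin, a subunit of the complex that corrects chromosome attachment) led in endothelium. It stood at 411, 381, 445 and 535 CPM in cycling endothelium of Graft_D19, Graft_D40, Sham_D40 and Ctrl, against 1.08, 1.27, 0.512 and 0.716 CPM in remaining endothelium. It was found in 38 of 49, 34 of 40, 11 of 12 and 2 of 2 cycling endothelial cells, and in 0.317% to 1.13% of remaining ones, and its lowest level in a cycling group lay above its highest in a remaining group. Cenpf, a kinetochore protein, led in cartilage with 661, 509, 1015 and 632 CPM in cycling cells, against 1.78, 1.75, 1.26 and 2.05 CPM in remaining cells. In other stroma Birc5 led again, with 241, 329, 401 and 533 CPM in cycling cells and 1.03, 1.66, 0.993 and 2.59 CPM in remaining cells. Hmmr, a spindle protein, and the histone Hist1h2ap were among the first 10 genes of each compartment. The endothelial list went on with Ccna2, Pimreg, Rrm2, Hist1h1b, Nusap1 and Ccnb2, that of cartilage with Hist1h3c, Ube2c, Prc1, Cdca3, Pbk and Ccnb2, and that of other stroma with Hist1h2ae, Hist1h1b, Cdca3, Ube2c, Tpx2 and Cdca8.

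Genes of late division share promoter letters in mammals, the CHR element together with CCAAT boxes, bound by the DREAM and MuvB complexes and NF-Y, and S phase genes carry E2F sites. The windows of 3 G2/M leaders and of the helicase gene Mcm6 are shown as examples from the G2/M and S phase lists. Most measured genes of those lists were higher in cycling than in remaining cells, which were told apart by their RNA. Each runs from 250 bases before to 50 bases after the start of the gene in RefSeq, build GRCm38.p6, 5′ to 3′ on the strand of the gene. Capitals mark CHR letters (TTTGAA or TTCGAA, both strands) and CCAAT in the first 3. In Mcm6 they mark CCAAT and the E2F letters TTTGGCGC, TTTCGCGC, TTTGGCGG or TTTCCCGC, and a pair of E2F matches overlaps in 1 capital run.
Cenpf, chr1:189688037-189688336, strand minus: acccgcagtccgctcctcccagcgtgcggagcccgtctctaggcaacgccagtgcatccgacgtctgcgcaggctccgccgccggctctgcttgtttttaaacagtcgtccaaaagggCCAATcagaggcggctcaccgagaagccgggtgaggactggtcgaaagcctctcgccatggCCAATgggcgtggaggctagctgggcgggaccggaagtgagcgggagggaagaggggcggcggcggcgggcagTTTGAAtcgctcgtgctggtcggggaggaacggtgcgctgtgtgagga
Hmmr, chr11:40733388-40733687, strand minus: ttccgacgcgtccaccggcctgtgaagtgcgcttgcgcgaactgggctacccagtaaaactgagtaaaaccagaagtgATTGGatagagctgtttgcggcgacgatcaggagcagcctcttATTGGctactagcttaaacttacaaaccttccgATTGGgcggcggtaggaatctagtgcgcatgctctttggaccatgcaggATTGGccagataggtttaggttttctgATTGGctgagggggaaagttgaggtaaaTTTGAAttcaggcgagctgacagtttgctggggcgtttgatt
Ccnb2, chr9:70421505-70421804, strand minus: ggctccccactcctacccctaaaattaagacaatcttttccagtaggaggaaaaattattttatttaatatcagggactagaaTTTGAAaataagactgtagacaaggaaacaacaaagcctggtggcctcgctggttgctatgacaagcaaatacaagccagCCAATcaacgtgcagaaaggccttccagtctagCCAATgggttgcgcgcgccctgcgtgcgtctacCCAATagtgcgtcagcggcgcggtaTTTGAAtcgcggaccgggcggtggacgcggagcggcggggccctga
Mcm6, chr1:128359656-128359955, strand minus: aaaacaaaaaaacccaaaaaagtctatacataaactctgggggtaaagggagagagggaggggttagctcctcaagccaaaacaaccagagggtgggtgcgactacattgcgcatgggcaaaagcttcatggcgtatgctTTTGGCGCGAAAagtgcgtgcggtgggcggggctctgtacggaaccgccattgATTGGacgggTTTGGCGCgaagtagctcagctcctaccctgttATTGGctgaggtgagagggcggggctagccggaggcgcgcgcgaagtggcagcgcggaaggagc

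The Cenpf window held 1 CHR match and 2 CCAAT matches, that of Hmmr 1 and 5, and that of Ccnb2 2 and 3. The Mcm6 window held 3 E2F matches and 2 CCAAT matches. Of 51 G2/M genes 41 had a window, 45 windows in all, and 75.6% of these held CHR letters against 19.2% of all 32851 windows of that length. CCAAT was found in 77.8% of the G2/M windows and 37.4% of all windows, and both together in 66.7% and 7.52%. In the 35 windows of 32 of the 40 S phase genes CHR letters stood in 14.3%, CCAAT in 62.9% and E2F letters in 34.3%, whereas E2F letters stood in 2.37% of all windows. A match is not a bound site, and binding was not measured here.

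Summed over the list, G2/M RNA stood at 12489, 11281, 11875 and 9360 CPM in cycling endothelium of Graft_D19, Graft_D40, Sham_D40 and Ctrl, against 622, 627, 596 and 662 CPM in remaining endothelium. S phase RNA stood at 3527, 3816, 5061 and 5234 CPM in cycling endothelium, against 526, 480, 468 and 492 CPM in remaining endothelium. The remaining cells were alike across libraries, and the levels in cycling cells were well apart from them. Cycling cartilage reached 13760, 10180, 18782 and 19858 CPM of G2/M RNA, against 669, 638, 641 and 747 CPM in remaining cartilage. Cycling other stroma had 7236, 6954, 9809 and 13921 CPM, against 470, 472, 462 and 569 CPM in remaining other stroma.

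**Figure D2:**
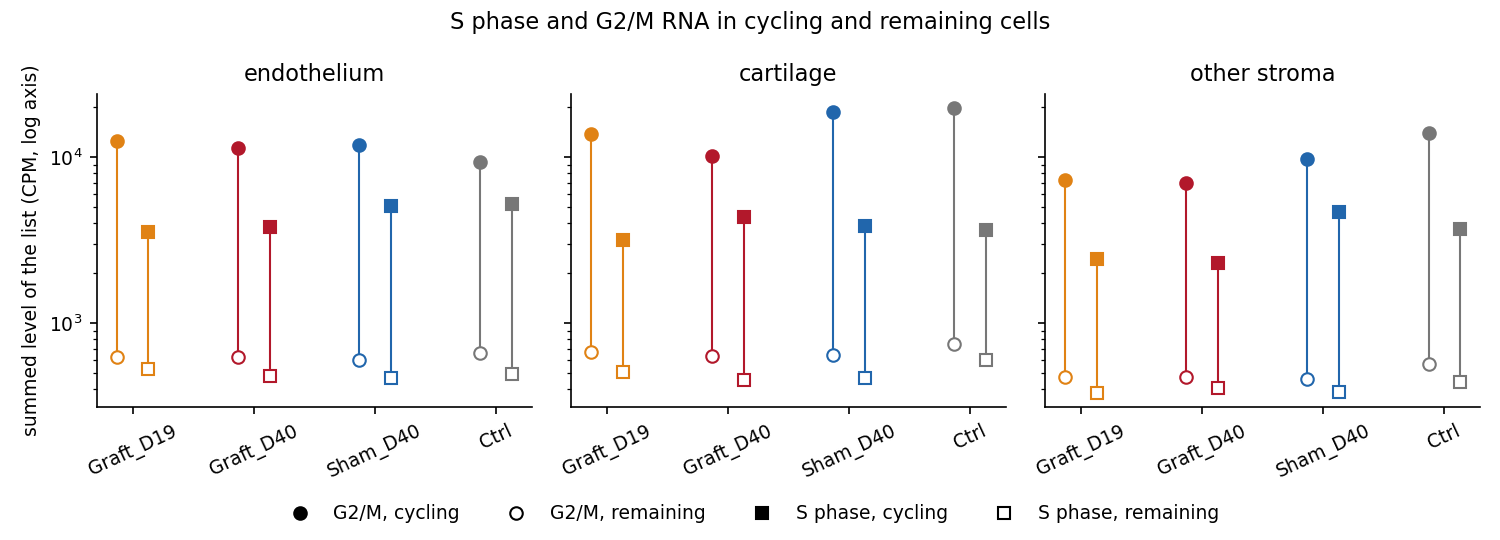
Summed level of the G2/M list (circles) and of the S phase list (squares) in CPM on a log axis, in cycling cells (filled) and remaining cells (open) of each library and compartment. Cycling endothelium of Graft_D40 stood at 11281 CPM of G2/M RNA, against 627 CPM in remaining endothelium, and every filled point stands above its open partner.

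The balance of G2/M over S phase RNA differed between compartments and libraries. In cycling cartilage it was 2.33 (2.26 to 2.40) in Graft_D40, against 4.88 (4.64 to 5.12) in Sham_D40, and it was 4.32 (4.22 to 4.43) in Graft_D19, against 5.45 (4.81 to 6.19) in Ctrl. Graft_D40 cartilage thus stood lowest of the 4. In cycling endothelium the order was other, with 2.96 (2.85 to 3.06) in Graft_D40, against 2.35 (2.19 to 2.51) in Sham_D40, and 3.54 (3.42 to 3.66) in Graft_D19, against 1.79 (1.54 to 2.08) in Ctrl. In cycling other stroma it was 3.02 (2.93 to 3.11) in Graft_D40, against 2.09 (1.96 to 2.24) in Sham_D40, and 2.96 (2.78 to 3.16) in Graft_D19, against 3.79 (3.48 to 4.14) in Ctrl. Single cells weighed on several sums: 1 cell gave 60.6% of the G2/M UMIs of Ctrl endothelium and 60.4% of those of Sham_D40 other stroma, against 11.5% in Graft_D40 cartilage. In narrowed cells the balance of Ctrl was 7.80 in other stroma, over 4 cells, and 38.6 in endothelium, 1 cell, and that of Graft_D19 was 4.88 in other stroma. In remaining cells the balance lay between 1.17 and 1.41.

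Cell by cell, the share of G2/M UMIs among S phase and G2/M UMIs had a median of 80.2%, 64.6%, 82.9% and 83.6% in cycling cartilage of Graft_D19, Graft_D40, Sham_D40 and Ctrl. Cells with more S phase than G2/M UMIs were 12 of 65, 7 of 36, 1 of 14 and 1 of 12 of these cells. The medians in endothelium were 76.1%, 81.0%, 66.5% and 75%, and in other stroma 86.0%, 76.5%, 67.1% and 83.5%. The lowest and highest cells of each group of 10 or more cells were far apart, at 24.6% and 100% in Graft_D19 cartilage for example, so the groups overlapped widely.

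**Figure D3:**
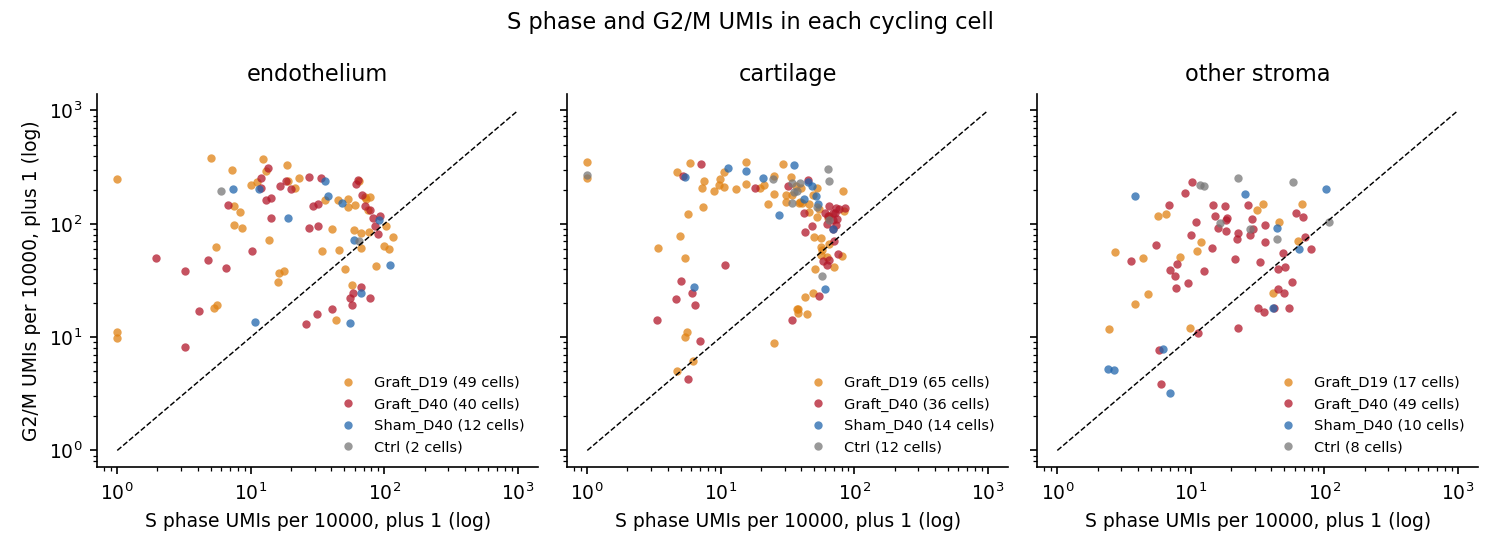
Each point is 1 cycling cell, with its S phase UMIs (horizontal) and G2/M UMIs (vertical) per 10000 UMIs plus 1, both on log axes, coloured by library; the dashed line marks equal amounts. Cells below the line carried more S phase than G2/M UMIs, as did 7 of 36 cells in Graft_D40 cartilage and 13 of 49 in Graft_D40 other stroma.

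The inhibitors and G1 genes of the cycle that were apart in every library were few and varied by compartment. Of 13 measured inhibitors in endothelium 1 was 2-fold or more higher in cycling cells of every library and 1 was lower, where 3.63% of all genes were higher and 1.65% lower. The higher one was Cdkn2c (p18, an inhibitor of Cdk4 and Cdk6), with 159, 151, 194 and 57.3 CPM in cycling endothelium of Graft_D19, Graft_D40, Sham_D40 and Ctrl, against 13.7, 18, 11.6 and 15.6 CPM in remaining endothelium. The lower one was Cdkn1c (p57, linked to rest), with 80.5, 16.5, 99.0 and 38.2 CPM in cycling endothelium, against 319, 163, 267 and 319 CPM in remaining endothelium. In Ctrl these rest on 3 and 2 UMIs. In cartilage 4 of 14 inhibitors were higher, a larger share than the 6.91% of all genes. In other stroma 0 of 13 were higher and 1 was lower, near the 7.12% of all genes that were lower there. Of the cyclins and kinases of G1, 2 of 8 were higher in endothelium, 2 of 7 in cartilage and 0 of 7 in other stroma. Over all genes 3.63%, 6.91% and 5.83% were higher there, so the G1 share was larger in endothelium and cartilage, over few genes. Ccnd1, the D-type cyclin that answers to growth signals, stood at 165, 323, 129 and 28.4 CPM in cycling other stroma, against 30.0, 50.9, 35.5 and 28.4 CPM in remaining other stroma.

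Cycling endothelium carried the pan-endothelial genes, some at lower levels. None of 14 pan-endothelial genes was 2-fold or more higher in every library and 2 were lower, among all genes 1.65% were lower, and in narrowed cells 0 of the 14 were, with 0.766% of all genes lower. Kdr, the VEGF receptor 2, stood at 466, 274, 672 and 229 CPM in cycling endothelium of Graft_D19, Graft_D40, Sham_D40 and Ctrl, against 1147, 656, 1173 and 1093 CPM in remaining endothelium. The first genes by the lower ranking were Hp, Slfn5, Fmo2, Cxcl14 and Cxcl12. Cxcl12, the chemokine that holds blood stem cells in the niche, stood at 542, 412, 214 and 210 CPM in cycling endothelium, against 3012, 1917, 5526 and 2992 CPM in remaining endothelium. In narrowed cells it stood at 736, 492, 158 and 100 CPM in cycling endothelium, against 1901, 1193, 2460 and 1571 CPM in remaining endothelium. Slfn5, a family member of interferon-induced genes, stood at 78.0, 53.0, 94.9 and 38.2 CPM, against 530, 475, 595 and 403 CPM. Ctrl had 2 cycling endothelial cells and its values carry little weight.

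In Graft_D40 the cycling endothelium had less sinusoidal and more interferon-induced RNA than in Sham_D40. Of the 10 sinusoidal genes 9 were 2-fold or more lower and 1 was higher, with a median log2 ratio of -2.53, where 9.74% of all genes were lower and 7.42% higher. In remaining endothelium the median of the same genes was -1.35, with 2.26% of all genes lower and 1.62% higher. Stab2, a scavenger receptor of sinusoids, stood at 261, 76.8, 726 and 134 CPM in cycling endothelium of Graft_D19, Graft_D40, Sham_D40 and Ctrl, and at 711, 204, 860 and 1095 CPM in remaining endothelium. It was found in 13 of 40 cycling cells of Graft_D40, against 9 of 12 of Sham_D40. In cycling cartilage, which should lack it, it was found in 5.56% and 21.4% of cells. The Graft_D40 to Sham_D40 ratio was 0.106 (0.0806 to 0.138). Fcgr2b, the inhibitory Fc receptor of sinusoids, stood at 112, 30.2, 478 and 38.2 CPM in cycling endothelium. Mrc1, the mannose receptor, stood at 425, 110, 722 and 287 CPM. The exception was Lyve1, a hyaluronan receptor of lymphatic and sinusoidal cells, with 0, 49.4, 4.12 and 0 CPM, of which 72.2% of the Graft_D40 UMIs came from 1 cell.

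Of the 16 interferon-induced genes 11 were 2-fold or more higher in Graft_D40 than in Sham_D40 cycling endothelium and 0 lower, where 7.42% of all genes were higher. Their median log2 ratio was 2.36, against 0.69 for the same genes in remaining endothelium. Measured genes were those with a mean of 20 CPM in cycling cells, so a gene low in Sham_D40, such as Ifit1, passed through Graft_D40. Remaining cells did not choose the genes, so the 2 medians are not on an equal footing. Isg15, a ubiquitin-like modifier, stood at 52.0, 673, 66.0 and 38.2 CPM in cycling endothelium of Graft_D19, Graft_D40, Sham_D40 and Ctrl, and at 139, 208, 83.7 and 121 CPM in remaining endothelium. Graft_D40 was the high library, with 26 of 40 cells positive and 26.9% of the UMIs from 1 cell. Ifit1, which binds viral RNA, stood at 4.19, 173, 4.12 and 0 CPM in cycling endothelium. Ifit3, its partner, stood at 21.0, 207, 28.9 and 0 CPM. In Graft_D19 both genes were low, so these levels were seen in Graft_D40 and not in the earlier graft library. In narrowed cells the sinusoidal list had 8 of 10 lower (median -2.02) and the interferon list 11 of 16 higher (median 2.68), over 29 cells of Graft_D40 and 6 of Sham_D40, where 13.9% of all genes were lower and 10.1% higher.

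Markers of other cell types moved in the same comparison of cycling endothelium. The erythroid list had 7 of 7 genes lower in Graft_D40, where 9.74% of all genes were lower. Its median log2 ratio was -7.67, against -2.76 in remaining endothelium. The list summed to 47.5 CPM in Graft_D40 and 2252 CPM in Sham_D40. Its genes thus passed the mean of 20 CPM mainly through Sham_D40, and the count largely follows from that filter. In Graft_D40 1 of 40 cells carried 2 or more blood-gene UMIs, against 4 of 12 in Sham_D40. Higher in Graft_D40 were 5 of 6 fibroblast genes, 14 of 19 matrix genes and 8 of 15 proliferating zone chondrocyte genes. Over all genes 7.42% were higher, and 2 of the matrix genes were lower. The medians of these lists were 1.17, 1.52 and 1.17, against 0.10, 0.47 and 1.16 in remaining endothelium. Of 11 osteoblast lineage genes 3 were higher and 2 lower, with a median of 0.80, against 0.92 in remaining endothelium. In narrowed cells 5 of 5 fibroblast, 5 of 5 osteoblast lineage (median 5.76) and 12 of 16 matrix genes were higher, where 10.1% of all genes were. There 1 matrix gene was lower. The osteoblast lineage median in remaining narrowed cells was 3.94. Sham_D40 had 6 narrowed cells, and a gene near 0 in them could pass the mean of 20 CPM through Graft_D40 alone. The counts of 5 of 5 therefore follow in part from the filter. The part of these markers in the sinusoidal and interferon values was not tested.

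**Figure D4:**
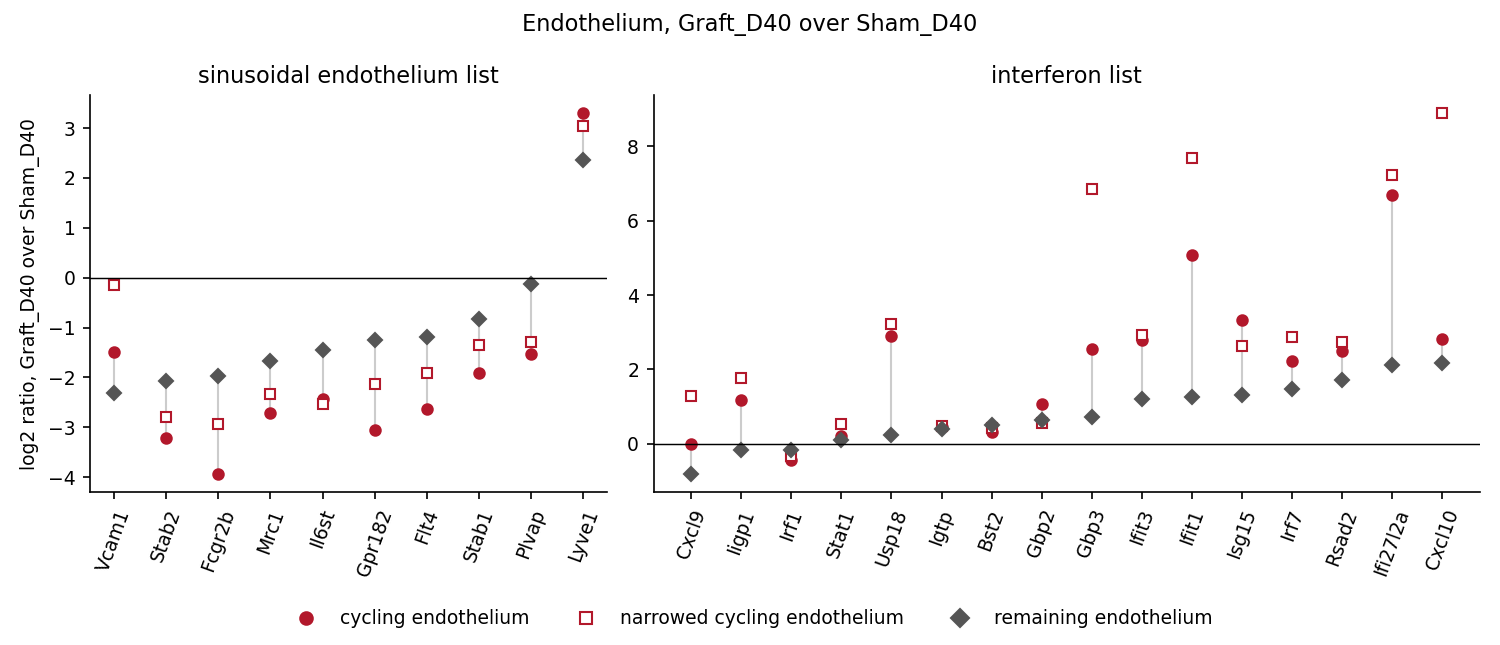
Log2 ratio of Graft_D40 over Sham_D40 (vertical axis) for the sinusoidal and interferon lists, in cycling endothelium (filled circles), narrowed cycling endothelium (open squares) and remaining endothelium (diamonds); genes run from the lowest to the highest ratio in remaining cells. Ratios use a pseudocount of 1 CPM; in cycling endothelium 9 of 10 sinusoidal genes lie at -1 or below and 11 of 16 interferon genes at 1 or above.

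Arterial and sprouting genes leaned the other way from the sinusoidal ones. Of 8 measured arterial genes 4 were 2-fold or more higher in Graft_D40 than in Sham_D40 cycling endothelium, and of 8 genes of tip cells 4 were, with 0 lower in either list, where 7.42% of all genes were higher. The median log2 ratio of the arterial list was 1.07, against 0.51 in remaining endothelium. That of the tip cell list was 0.89, against 0.97, so it was no larger in cycling than in remaining cells. In narrowed cells 6 of 8 and 5 of 10 were higher, where 10.1% of all genes were. The narrowed medians were 1.59 and 1.45, against 0.63 and 1.01 in remaining cells. Ly6a, which encodes the sort antigen Sca1, stood at 169, 900, 392 and 76.4 CPM in cycling endothelium of Graft_D19, Graft_D40, Sham_D40 and Ctrl. Apln, a ligand made by sprouting tip cells, stood at 106, 302, 8.25 and 0 CPM, and 73.3% of the Graft_D40 UMIs came from 1 cell. It was found in 15 of 49, 11 of 40, 1 of 12 and 0 of 2 cycling cells. The genes ranked highest over both ungrafted libraries were Col3a1, Ccl2, Plac8, Pgf and Ifi27l2a, each with 0 UMIs in cycling endothelium of Sham_D40 and Ctrl. Pgf, the placental growth factor of the VEGF family, stood at 20.1 and 117 CPM in Graft_D19 and Graft_D40. Against the floor of 3 UMIs in a library, Graft_D40 was at least 9.45-fold above Sham_D40 and at least 2.04-fold above Ctrl, with 65.6% of its UMIs from 1 cell. In narrowed cells it was at least 6.49-fold above Sham_D40, and the counts set no bound over Ctrl. The ranked lower genes included Ubd, Ackr1, Clca3a1 and Cxadr. Ackr1, the venular chemokine receptor, stood at 33.6, 0, 169 and 57.3 CPM, at least 61.7-fold lower in Graft_D40 than in Sham_D40, where 70.7% of the UMIs came from 1 cell, and at least 18-fold lower in narrowed cells.

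Cycling cartilage had less RNA of the hypertrophic zone and of bone than remaining cartilage. Of 10 genes of the hypertrophic zone 4 were 2-fold or more lower than in remaining cartilage in every library and 0 higher, among all genes 1.11% were lower, and of 11 osteoblast lineage genes 6 were lower. Ibsp, a bone matrix protein, stood at 61.6, 393, 485 and 24.8 CPM in cycling cartilage of Graft_D19, Graft_D40, Sham_D40 and Ctrl, against 7877, 4822, 4668 and 2894 CPM in remaining cartilage. Ihh, the signal of prehypertrophic cells, stood at 38.6, 102, 0 and 0 CPM, against 272, 298, 203 and 166 CPM. Of the 102 CPM in Graft_D40, 98.6% came from 1 cell. That library also had 1 cell that gave 99.1% of its 1125 Col10a1 UMIs, the collagen of the hypertrophic zone.

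The cartilage matrix genes were close to those of remaining cells. Of 18 proliferating zone genes 1 was 2-fold or more higher in every library, no larger a share than the 6.91% of all genes. It was Matn3 (matrilin 3), at 2889, 2329, 2731 and 3097 CPM in cycling cartilage of Graft_D19, Graft_D40, Sham_D40 and Ctrl, against 1395, 934, 726 and 860 CPM in remaining cartilage. Acan, the aggrecan core protein, stood at 4019, 3691, 2979 and 2230 CPM, against 3407, 3223, 2548 and 1897 CPM. Col2a1 chose the compartment and is not read. Further ranked lower genes were Cd200, Ptgis, Ccn2 and Hpgd. Cd200 is an antigen of the stromal sort gate and stood at 20.5, 29.5, 27.5 and 24.8 CPM in cycling cartilage, against 165, 151, 165 and 251 CPM in remaining cartilage. How the gate bears on the share of cycling cartilage was not tested.

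Between libraries the mitotic genes of cycling cartilage differed. In Graft_D40 17 of 51 G2/M genes were 2-fold or more lower than in Sham_D40 and 0 higher (median log2 ratio -0.87), where 4.48% of all genes were lower and 3.17% higher. The median of these genes in remaining cartilage was 0.16, where 1.77% of all genes were lower and 0.124% higher. Ccnb1, cyclin B1, stood at 134, 62.7, 224 and 186 CPM in cycling cartilage of Graft_D19, Graft_D40, Sham_D40 and Ctrl. It was found in 37 of 65, 15 of 36, 12 of 14 and 5 of 12 cells, and its Graft_D40 to Sham_D40 ratio was 0.280 (0.209 to 0.373). Cdc20, which starts the degradation of cyclin B, stood at 192, 101, 302 and 173 CPM. Of the 40 S phase genes 6 were higher in Graft_D40 and 0 lower (median 0.28). Mcm6, whose window is printed above, stood at 90.4, 135, 55.0 and 24.8 CPM. Sham_D40 had 14 cycling cartilage cells, and 37.7% of its Ccnb1 UMIs came from 1 cell.

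For Graft_D19 against Ctrl, cycling cartilage could be compared over 65 and 12 cells. Of 51 G2/M genes 6 were 2-fold or more lower and 1 higher (median -0.47), where 10.2% of all genes were lower and 16.1% higher. Of 17 proliferating zone genes 5 were higher and 0 lower (median 0.46), and in remaining cartilage their median was 0.58, where 3.56% of all genes were higher and 1.6% lower. The median depth was 39304 UMIs in cycling cartilage of Graft_D19 and 2922 UMIs in that of Ctrl.

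The genes ranked apart in Graft_D40 cycling cartilage rested in part on single cells. Higher were Acta2, Col10a1, Pltp, Col3a1 and Mmp13, with 98.4% of the Acta2 UMIs from 1 cell. Pltp, a lipid transfer protein, stood at 10.7, 117, 9.82 and 0 CPM, in 9 of 36 cells of Graft_D40, with 48.1% from 1 cell. The ranked lower genes of cartilage included Ccnb1, Msmo1, Pimreg and Ska2, of which Ska2 acts at the kinetochore and Msmo1 in cholesterol synthesis. Ska2 stood at 59.2, 26.7, 74.6 and 111 CPM. Prg4, lubricin of the joint surface, stood at 2324, 7.93, 2908 and 24.8 CPM, with 80.4% of the Graft_D19 UMIs from 1 cell and 26.6% of the Sham_D40 UMIs.

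Pooled cycling other stroma was poor in the genes of the LepR-expressing stroma that surrounds marrow vessels. Each of the 10 genes of that list were 2-fold or more lower than in remaining other stroma in every library, among all genes 7.12% were lower, and in narrowed cells 8 of 10 were, with 4.15% of all genes lower. Cxcl12 stood at 470, 741, 4445 and 1612 CPM in cycling cells of Graft_D19, Graft_D40, Sham_D40 and Ctrl, against 18894, 10469, 24793 and 26023 CPM in remaining cells. Lepr, the leptin receptor, stood at 30.3, 61.7, 284 and 102 CPM, against 1515, 1069, 1535 and 1319 CPM. Of narrowed cells with 20 or more Cxcl12 UMIs per 10000, 1 of 1940, 7 of 1436, 6 of 2126 and 2 of 1938 were cycling. Counted the other way, 1 of 12, 7 of 45, 6 of 9 and 2 of 4 narrowed cycling cells reached that level. In remaining cells 80.4%, 66.5%, 82.0% and 85.8% did. Cxcl12-rich cells were thus most of the few cycling cells of Sham_D40. Clec3b, a fibroblast marker, had no UMI in any cycling cell of other stroma, against 87.8, 105, 96.1 and 52.9 CPM in remaining cells. The other ranked lower genes were Cilp, Rgs5 (a pericyte marker), Thbs4 and Itih5.

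In Graft_D40 the cycling other stroma was led by 5 genes with few or no UMIs in cycling cells of the other libraries, Acta2, Ccl7, Ccl2, Hmga2 and Sfrp2. Of the fixed lists 4 of 7 fibroblast genes and 2 of 4 pericyte genes were 2-fold or more higher than in Sham_D40 and 0 lower, where 10.2% of all genes were higher. Other lists rose too: 5 of 9 proliferating zone chondrocyte genes were higher and 2 lower, and 9 of 20 matrix genes higher and 3 lower. In narrowed cells 3 of 7 fibroblast, 2 of 4 pericyte, 6 of 9 chondrocyte and 8 of 20 matrix genes were higher. There 0, 0, 1 and 3 were lower, and 10.2% of all genes were higher. Acta2, smooth muscle actin, stood at 7.59, 1568, 0 and 0 CPM in cycling cells of Graft_D19, Graft_D40, Sham_D40 and Ctrl, and at 91.1, 501, 63.9 and 241 CPM in remaining cells. It was found in 36 of 49 cycling cells of Graft_D40 with 15.2% of the UMIs from 1 cell, whereas in cycling cartilage of that library, at a median of 38118 UMIs, it was found in 4 of 36. Against the floor of 3 UMIs, Graft_D40 was at least 138-fold above Sham_D40 and at least 92.1-fold above Ctrl, and at least 91.1-fold and 24.8-fold in narrowed cells. The next ranked genes had no UMI in cycling cells of Sham_D40 or Ctrl. Ccl7 and Ccl2, chemokines that draw monocytes, stood at 303 and 189 CPM in Graft_D40, with 39.2% and 35.4% from 1 cell. Hmga2, a chromatin protein of growing mesenchyme, stood at 1.90 and 184 CPM in Graft_D19 and Graft_D40, in 1 of 17 and 25 of 49 cells. Sfrp2, a secreted modulator of Wnt signals, stood at 170 CPM in Graft_D40, in 33 of 49 cells.

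Further genes described these Graft_D40 cells. Col3a1, a fibrillar collagen, stood at 237, 2043, 49.2 and 45.4 CPM in cycling other stroma of Graft_D19, Graft_D40, Sham_D40 and Ctrl, and was found in 45 of the 49 Graft_D40 cells. Tagln, a partner of actin filaments, stood at 1.90, 749, 3.79 and 0 CPM. Myh11, the myosin of mature smooth muscle, stood at 0, 0, 3.79 and 0 CPM, and Rgs5 at 1.90, 1.90, 3.79 and 0 CPM. Acta2 and Tagln were thus high in Graft_D40 cells in which Myh11 was at 0 and Rgs5 near 0. S100a4, a fibroblast marker, stood at 510, 992, 22.7 and 39.7 CPM, with 82.2% of the Graft_D19 UMIs from 1 cell.

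**Figure D5:**
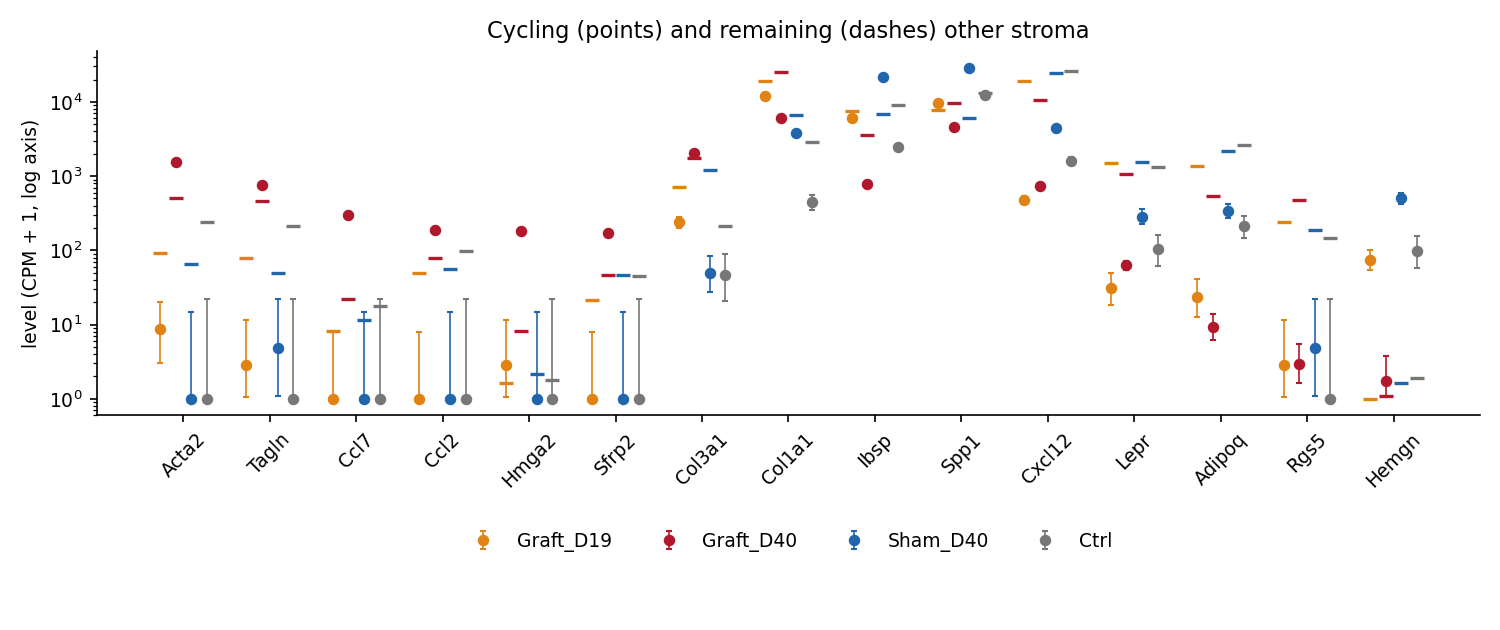
Level (CPM plus 1, log axis) of 15 genes in cycling other stroma of each library (points, with 95% Poisson intervals for counting error) and in remaining other stroma (dashes). Acta2 stood at 1568 CPM in cycling cells of Graft_D40 and at 0 in those of Sham_D40 and Ctrl, whereas Cxcl12 and Lepr lay below the dashes in all 4 libraries.

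In other stroma cycling cells rich in Acta2 were counted in Graft_D40 and in none of the other 3 libraries. Among narrowed other stroma cells with 10 or more Acta2 UMIs, 0 of 28 were cycling in Graft_D19 (up to 12.3% by the interval), 26 of 169 in Graft_D40 (15.4%, 10.3% to 21.7%), 0 of 26 in Sham_D40 (up to 13.2%) and 0 of 36 in Ctrl (up to 9.74%). The 4 intervals overlapped for Graft_D19 and Sham_D40 and did not for Ctrl. Below 10 Acta2 UMIs the cycling shares were 0.501%, 0.938%, 0.350% and 0.180%, again with Graft_D40 first. Of the 45 narrowed cycling cells 4 had 5 to 19 Acta2 UMIs. The median depth was 59952 UMIs in the 26 Acta2-rich cycling cells and 25534 UMIs in the other 19, and 21 of the 49 narrowed cells of Graft_D40 other stroma with 50000 or more UMIs were cycling. Scrublet called none of the cycling cells of Graft_D40. The part of depth or of joined cells in this result was not tested further.

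The interferon genes were also higher in Graft_D40 cycling other stroma, with 5 of 8 measured genes 2-fold or more above Sham_D40 and 0 below (median log2 ratio 2.84, against 0.58 for the same genes in remaining cells), where 10.2% of all genes were higher and 14.9% lower. In remaining other stroma 1.02% of all genes were higher and 1.33% lower. A gene low in Sham_D40 could be measured here through Graft_D40 alone, and remaining cells did not choose the genes. Bst2, tetherin, stood at 85.4, 880, 98.4 and 73.8 CPM in cycling cells of Graft_D19, Graft_D40, Sham_D40 and Ctrl, in 48 of 49 Graft_D40 cells, against 247, 352, 221 and 363 CPM in remaining cells. Isg15 stood at 41.7, 374, 37.9 and 28.4 CPM. Of the LepR list 9 of 10 genes were lower (median -2.15, against -1.29 in remaining cells) and of 11 osteoblast lineage genes 9 were lower (median -2.41, against 0.70).

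Bone matrix genes varied widely between the libraries in cycling other stroma. The osteoblast lineage list summed to 32070, 12122, 62440 and 17098 CPM in cycling cells of Graft_D19, Graft_D40, Sham_D40 and Ctrl, against 41796, 51148, 23546 and 29646 CPM in remaining cells, and Sham_D40 was the 1 library with the higher sum in cycling cells. Spp1, osteopontin, stood at 9678, 4558, 28553 and 12354 CPM in cycling cells of Graft_D19, Graft_D40, Sham_D40 and Ctrl, with 58.4% of the Sham_D40 and 91.4% of the Ctrl UMIs from 1 cell. Ibsp stood at 6081, 793, 21708 and 2457 CPM, with 64.7% of the Sham_D40 UMIs from 1 cell. Tnc, tenascin C, stood at 2189, 475, 3691 and 545 CPM, and was found in 10 of 10 Sham_D40 cells. Sham_D40 and Ctrl values thus come from a few cells.

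The genes ranked lower in Graft_D40 cycling other stroma, Nxpe2, Cd24a, Cldn13, Hemgn and Tspan33, moved with the blood-type cells. Hemgn, a nuclear protein of blood precursors, stood at 74.0, 0.762, 504 and 96.5 CPM in cycling cells of Graft_D19, Graft_D40, Sham_D40 and Ctrl, with 99.2% of the Sham_D40 UMIs from 1 cell. In narrowed cells it had 0, 0, 1 and 0 UMIs. All 13 measured erythroid genes were lower in Graft_D40 than in Sham_D40, where 14.9% of all genes were lower. The list summed to 38.1 CPM in Graft_D40 and 13936 CPM in Sham_D40. Its genes thus passed the mean of 20 CPM mainly through Sham_D40, and the count largely follows from that filter. Mpo, the granule enzyme of neutrophil precursors, stood at 1.90, 0.762, 0 and 3910 CPM, with 73.9% of the Ctrl UMIs from 1 cell. Of 37 S phase genes 18 were 2-fold or more lower in Graft_D40 than in Sham_D40 by the rule, and 4 of 34 in narrowed cells, where 15.4% of all genes were lower. Of the G2/M list 4 of 51 were lower and 0 higher by the rule, and 0 lower and 10 of 50 higher in narrowed cells, where 10.2% of all genes were higher.

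Receptors of mitogens and immediate early genes were counted in the same way. Of the receptor list 1 of 13 measured genes was 2-fold or more lower in cycling endothelium in every library, 0 of 6 in cartilage and 4 of 10 in other stroma, with 0 higher in each, where 1.65%, 1.11% and 7.12% of all genes were lower. In single libraries 6, 4, 6 and 11 of the 13 endothelial ones were lower in Graft_D19, Graft_D40, Sham_D40 and Ctrl. Pdgfrb, a receptor of platelet-derived growth factor, stood at 49.3, 282, 220 and 34.0 CPM in cycling other stroma of Graft_D19, Graft_D40, Sham_D40 and Ctrl, against 638, 582, 591 and 493 CPM in remaining cells. Of the immediate early genes, which also respond to cell dissociation, 1 of 18, 0 of 18 and 3 of 15 were lower in the 3 compartments and 0 higher, against the same shares of all genes. The genes lower in every library of all 3 compartments numbered 3, Col10a1, Igfbp4 and Clu, of which Col10a1 is a list gene and the others were chosen after their values were seen.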

How the data were processed

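Stromal and endothelial cells sorted from mouse femurs were profiled by droplet single-cell RNA sequencing. The deposited values are counts, UMIs per gene and barcode in filtered matrices. Reads were processed with Cell Ranger 3.1.0 on mm10 per the submitters' processing notes, whereas Cell Ranger 5.0.0 stands there per the file headers. Cells with 500 or more genes, 1000 or more UMIs and 0.5% to 10% mitochondrial UMIs were kept, and Scrublet (scanpy 1.11.5) called doublets without removing them. UMIs were summed per library, compartment and cycling state and scaled to CPM. Ratios used a pseudocount of 1 CPM, for genes with a mean of 20 CPM or more, and were called at 2-fold. Between libraries 10 or more summed UMIs were also needed. Ratios of cycling over remaining cells had no UMI minimum, and in Ctrl cycling endothelium 1 UMI is 19.1 CPM. With 1 library per group there was no test. Shares have Clopper-Pearson intervals, sums Poisson intervals and ratios exact conditional intervals, all at 95%. By the rule, genes and list genes apart between libraries were counted only where both had 10 or more cycling cells. Ratios of shares, ranked genes, single-gene bounds and narrowed counts also used groups with fewer cells. Libraries held 18533482 to 72204599 UMIs of genes. Scripts ran in Python 3.11.15 and were tested on simulated data.

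The members and the gene lists were chosen with earlier results of these data known. Genes named against remaining cells had 50 CPM or more in cycling cells of every library (in remaining cells, for lower genes) and were ranked by their smallest ratio, 10 higher and 5 lower. Between libraries the first 5 in each direction by the smaller ratio of Graft_D40 over Sham_D40 and over Ctrl were named, at 50 CPM or more and in 10% or more of the cycling cells of the higher library, without blood-cell list genes. The genes of the membership rule, mitochondrial, ribosomal, haemoglobin, immunoglobulin and sex-linked marker genes were left out. List genes were named for a stated role. Some ranked genes are not reported here. Alternatives changed the membership threshold, depth, filters, fold and comparator.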

Additional observations from a re-analysis of the deposited data

Results flagged for a closer look

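The balance of G2/M over S phase RNA moved in opposite directions between pairs of libraries. In other stroma its log2 ratio was 0.53 for Graft_D40 over Sham_D40 and -0.36 for Graft_D19 over Ctrl. For Graft_D40 over Sham_D40 it was 0.33 in endothelium and -1.07 in cartilage. These differences were not tested, since each group had 1 library.

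Cells with a Ptprc UMI, left out by the membership rule, also reached 3 UMIs of Top2a plus Mki67. They numbered 15 of 44 in Graft_D19, 13 of 40 in Graft_D40, 12 of 30 in Sham_D40 and 2 of 10 in Ctrl.

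Antibody features were present in the files of Graft_D40 and Sham_D40 only. Feature B0302 had a median of 1046 UMIs in cycling cells of Graft_D40 and led in 125 of 125 of them. Feature B0301 had a median of 251.5 UMIs in cycling cells of Sham_D40 and led in 36 of 36.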

How the results depend on the processing

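Of the alternative ratios of cycling shares, 125 lay inside the counting interval of the ratio by the rule, 13 lay outside and 1 reversed a ratio whose interval excluded 1. Of the 125, 12 lay on the other side of 1, each for a ratio whose interval included 1. Of the 13, 1 did so too. Sham_D40 over Ctrl cartilage went from 0.728 (0.312 to 1.72) to 3.41 (2.41 to 4.96) by 10 or more G2/M list UMIs. Graft_D40 over Sham_D40 cartilage (1.08) was 0.838 and 0.793 after thinning to 2000 with 1 or more and 2 or more UMIs. Sham_D40 over Ctrl other stroma (1.09) was 0.612 (0.492 to 0.761) by 3 or more G2/M UMIs after thinning to 2000 and 0.409 (0.149 to 1.05) by 20 mitotic genes. Counting 10 or more UMIs of the G2/M list gave ratios of 1.55 in endothelium and 1.31 in other stroma for Graft_D40 over Sham_D40, 3.86 in cartilage and 6.27 in other stroma for Graft_D19 over Ctrl, and 3.41 in cartilage and 6.98 in other stroma for Sham_D40 over Ctrl. Counting 3 or more of these UMIs after thinning to 2000 gave 1.28 in endothelium and 1.73 in other stroma for Graft_D40 over Sham_D40 and 1.10 in endothelium for Graft_D19 over Ctrl, and reversed Sham_D40 over Ctrl in endothelium to 0.936. Thinning to 2000 with 1 or more UMI gave 2.66 for Graft_D40 over Sham_D40 other stroma, and 20 mitotic genes gave 4.91 for Graft_D19 over Ctrl endothelium. With the other ungrafted library as comparator, endothelium gave 20.4 for Graft_D40 over Ctrl and 3.87 for Graft_D19 over Sham_D40. With 2 or more UMIs after thinning to 2000, 32 of 1536 cells in Graft_D19, 9 of 1475 in Sham_D40 and 0 of 1131 in Ctrl endothelium were cycling, which gives no ratio.

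Genes higher in every library, 255 in endothelium, 392 in cartilage and 394 in other stroma, numbered 145, 206 and 256 at a minimum of 50 CPM and 388, 612 and 689 at a fold of 1.5. In narrowed cells they numbered 162 in endothelium and 211 in other stroma, and without Ctrl 387 in endothelium. Genes 2-fold apart for Graft_D40 over Sham_D40 numbered 1223 in endothelium, 449 in cartilage and 1623 in other stroma. With no minimum they numbered 2323, 1487 and 3453, and at 50 CPM 520, 177 and 692. Cartilage gave 781 by the mean of per-cell CPM and 1551 against Ctrl. The 1418 genes of Graft_D19 over Ctrl cartilage became 4788 with no minimum, 465 at 50 CPM, 2285 by per-cell means and 363 against Sham_D40. The TMM log2 shift of cycling cells was -0.12 in endothelium, -0.04 in cartilage and -0.19 in other stroma for Graft_D40 over Sham_D40. For Graft_D19 over Ctrl cartilage it was -0.15. The shift was subtracted, so TMM scaling raised the log2 ratios by these amounts.

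By the mean of per-cell CPM the balance of G2/M over S phase RNA was 3.41 in Graft_D19, 3.33 in Graft_D40 and 3.85 in Ctrl endothelium, 4.52, 2.24, 5.55 and 4.72 in cartilage and 3.56, 2.73, 2.56 and 4.38 in other stroma of Graft_D19, Graft_D40, Sham_D40 and Ctrl. At 5 or more UMIs it was 3.27 in Graft_D40 and 2.59 in Sham_D40 endothelium, 4.5 in Graft_D19 cartilage, and 3.11 in Graft_D40 and 3.42 in Ctrl other stroma. In narrowed cells it was 3.71, 3.68, 2.72 and 38.6 in endothelium and 4.88, 3.51, 2.32 and 7.80 in other stroma of the 4 libraries. The cause was not tested. Ctrl, at a median of 3607 UMIs per cell, limits what can be detected there. The narrowed cells, thinning to 1000 UMIs, the 20 mitotic genes, keeping cells with Ptprc and leaving out Ctrl were chosen after seeing the data. No paired analysis was possible because each group had 1 library.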
